A study of Saccharomyces cerevisiae with 177 samples.

Results

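The genes described here are the 7 hexose transporter genes HXT1 to HXT7 of the budding yeast Saccharomyces cerevisiae and the 2 genes MTH1 and STD1, whose products adjust HXT transcription to glucose. They are defined by gene name alone, though they were chosen with earlier results of these data known, and make up 9 of the 5794 genes listed in every library. By systematic name they are YHR094C (HXT1), YMR011W (HXT2), YDR345C (HXT3), YHR092C (HXT4), YHR096C (HXT5), YDR343C (HXT6), YDR342C (HXT7), YDR277C (MTH1) and YOR047C (STD1). In the sacCer3 genome, HXT4, HXT1 and HXT5 lie together on chromosome VIII, and HXT7, HXT6 and HXT3 lie together on chromosome IV.

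The study measured newly made RNA, purified after a pulse of 5 min with 4-thioU, in 177 libraries that fall into 60 groups of a strain and a treatment. Of these, 162 libraries came as a deposited signal per gene, with a scale set by the authors, and 15 libraries of a stress experiment came as counts (4384651 to 10032201 per library). Whole reads could be recovered from the signal in 106 libraries, which held 2119348 to 10714590 reads, and depth is unknown in the other 56. Groups held 3 libraries each, labelled A, B and C, except Med7_EWE3, Med21_EWE4 and Med21_WT with 2. Whether A, B and C were grown apart is not stated by the submitters, so p-values describe the spread among these libraries only, which may be technical.

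All strains were MATalpha and carried lesions in ade2, his3, leu2, lys2, met15, trp1 and ura3, with the his3 allele of med15del written only as D200. Degron strains made the plant auxin receptor OSTIR from the GPD1 promoter and had an IAA7 degron on the named factor, so that 3-indoleacetic acid (3IAA, or IAA in the stress groups) triggers its breakdown, with DMSO as the control in the same strain. The degron was on CCL1, SRB10 (the CDK8 groups), MED1, MED5, MED7, MED9, MED10, MED12, MED14, MED15, MED16, MED17 or MED19, or on pairs of these genes or of MED15 with MED2 or TAF1. It was the mini degron form for MED9, MED17 and, in Med15_Med16, MED16. RPB3 also carried a 3xFlag tag, except in the Med9, Med19, Med31, Med15_Med16, Med15_Taf1, Med15_Spt7, Med7C, Med7N and TID strains. The genotype label of the Med31 libraries names a degron on MED19, unlike their titles, which were followed here.

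In the Med7C, Med7N and TID strains the chromosomal gene was deleted and replaced by a pair of plasmids, each carrying a piece of the subunit, of which the piece in the group name was tagged for breakdown (a mini degron for both Med7 pieces). The Med14C strain kept a degron-tagged MED14 and carried 2 plasmids with incomplete copies of it, of which 1 had a mini degron. Med7_WT, Med7_EWE3, med7N_del, Med21_WT, Med21_EWE4, Med6_WT and Med6_delH1 had the chromosomal gene deleted and a wild-type or mutant plasmid copy, and they carried OSTIR without a degron. The med15del strain (Dgal11::HPH), the med16del strain (Dsin4::TRP1) and their control WT (BY4705) had neither OSTIR nor a degron. The stress groups were all made from the Med15 degron strain, under conditions that the labels call no_stress, HS and SM and do not spell out. Signal of GAL11, the MED15 gene, was 0.66 to 1.05 in med15del and 78.94 to 83.2 in WT, and signal of SIN4, the MED16 gene, was 0.13 to 0.17 in med16del and 23.45 to 25.19 in WT. Degrons act on protein, so the RNA does not check the depletions. Among mating-type markers in the control libraries, MF(ALPHA)1 signal was 136.73 to 2182.37, while MFA1 reached at most 1.51 and MFA2 at most 0.56.

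Yeast cells take up glucose by facilitated diffusion through the Hxt carriers, and match the carriers they make to the sugar they sense. Hxt1 and Hxt3 are low-affinity carriers made when glucose is plentiful, Hxt2 and Hxt4 have higher affinity and are made at low glucose, Hxt6 and Hxt7 are high-affinity carriers held down by high glucose, and Hxt5 is made in slowly growing or stressed cells. The repressor Rgt1 holds HXT promoters silent together with the corepressor Cyc8-Tup1, and needs Mth1 or Std1 to do so, until glucose sensed by Snf3 and Rgt2 leads to phosphorylation of Mth1 and Std1 by Yck1 and Yck2 and to their breakdown through Grr1. A further branch runs through the Snf1 kinase and the repressor Mig1, which acts on MTH1 and on carriers of higher affinity. Mediator links regulators of this kind to RNA polymerase II, with a tail (Med2, Med5, Med15, Med16), a middle (Med1, Med7, Med9, Med10, Med19, Med21, Med31), a head (Med6, Med17), a scaffold (Med14) and a kinase module (Cdk8, Med12).

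Rgt1 is known to bind the letters CGGANNA, so the stretches upstream of the main carrier genes that hold most of these letters are shown first. In the 1000 bases upstream of the start codon, searched on both strands, HXT3 had 9 matches and HXT1 had 8, against a median of 1 over 5789 genes, of which 67.2% had at least 1. As many matches as in HXT3 were found in 0.0173% of genes, and as many as in HXT1 in 0.0345%. HXT5 and MTH1 had 4 matches each, HXT2, HXT4, HXT6 and STD1 had 3 and HXT7 had 2, and 3 or more were found in 11.4% of genes. The sequences below are read from the sacCer3 reference genome on the strand of the gene, with matches in either direction in capitals. They cover chrVIII:292989-293138 (minus strand) for HXT1, chrIV:1165052-1165201 (minus strand) for HXT3, chrXIII:287594-287743 (plus strand) for HXT2 and chrVIII:289094-289243 (minus strand) for HXT4.
HXT1: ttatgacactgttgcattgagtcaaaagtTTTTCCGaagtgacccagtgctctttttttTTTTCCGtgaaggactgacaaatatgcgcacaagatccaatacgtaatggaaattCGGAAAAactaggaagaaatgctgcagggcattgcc
HXT3: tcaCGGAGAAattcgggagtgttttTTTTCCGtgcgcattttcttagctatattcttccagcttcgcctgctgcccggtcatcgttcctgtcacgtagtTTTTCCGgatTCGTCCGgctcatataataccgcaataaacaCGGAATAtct
HXT2: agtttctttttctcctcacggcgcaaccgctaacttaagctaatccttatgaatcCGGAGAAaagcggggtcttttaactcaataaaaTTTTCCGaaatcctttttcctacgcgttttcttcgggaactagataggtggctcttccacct
HXT4: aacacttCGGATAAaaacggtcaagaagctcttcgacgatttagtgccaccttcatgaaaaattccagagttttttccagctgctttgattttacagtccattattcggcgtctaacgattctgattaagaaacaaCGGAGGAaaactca
The window of HXT3 holds 5 of its 9 matches, and that of HXT1 holds 3 of 8. Mig1 is known to bind GC-rich boxes, for which GCGGGG (in 10.7% of genes) and CCGGGG (in 8.3%) were searched. HXT2 had 2 and 1 of them, HXT4 and MTH1 had 1 of each, HXT7 had 1 GCGGGG and HXT6 had 1 CCGGGG, and none was found for HXT1, HXT3, HXT5 or STD1. Matches of different letters can overlap, as 1 CGGANNA match of HXT3 does with a CTTCC match and another with a GAANNTTC match (both searched below), and 1 of MTH1 with an AGGGG match. A match describes the letters only.

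HXT6 and HXT7 limit what can be said about either gene. Their coding sequences of 1713 bases differ at 3 positions, written with the HXT7 base first and counted from the A of the start codon: C1632T, A1666G and C1677T. The stretch that holds the first 2 of these, from position 1607 to 1666, is shown with the differing bases in capitals, at chrIV:1154263-1154322 for HXT7 and chrIV:1159655-1159714 for HXT6, both on the minus strand.
HXT7: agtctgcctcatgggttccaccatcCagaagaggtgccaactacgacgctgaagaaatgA
HXT6: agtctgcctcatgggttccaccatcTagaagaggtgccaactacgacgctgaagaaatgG
Of the 1664 windows of 50 bases in either gene, 82 (4.93%) occur once in the genome, compared with 85.1% for HXT3 and 95% to 100% for the other 6 members. How the authors' counting treated reads that match several places is not given in the sources used here. The values of HXT6 and HXT7 are therefore uncertain, alone and against each other, and their sum is given where it changes a result. By contrast MTH1 and STD1, which are paralogs with 68.8% identical bases, had no shared windows (100% unique each).

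In control cells HXT3 had the highest level of the 9 genes and HXT5 the lowest. Over the 26 control groups of the signal experiments, the median signal per kilobase of coding length was 159 for HXT3 (range 65 to 332), 96.4 for STD1 (23.6 to 207), 42.9 for MTH1 (5.87 to 142), 41.7 for HXT1 (17.1 to 114) and 36.5 for HXT2 (11.5 to 212). The other carriers were lower, with medians of 4.55 for HXT4, 3.78 for HXT7, 0.575 for HXT6 and 0.201 for HXT5. HXT3 was above STD1 in 73 of 77 control libraries, and STD1 was above HXT1 in 73. The order of HXT1, MTH1 and HXT2 was not fixed, since HXT1 was above MTH1 in 48 of 77 libraries and MTH1 was above HXT2 in 33. HXT7 was above HXT6 in all 77 libraries.

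The rank of each gene within its library shows how far the control strains differed. HXT3 ranked between 29 and 802 among all genes by signal, here not divided by coding length, and STD1 between 436 and 1722. MTH1 ranged from rank 203 to rank 4672, HXT2 from 71 to 4484 and HXT4 from 885 to 5249. HXT4 was highest in Med14C_DMSO (96.6, 106 and 81.45 signal in replicates A, B and C) and Med7C_DMSO (80.89, 83.79 and 91.54), and lowest in Med17_DMSO (1.53, 0.94 and 1.24). These strains differ in genotype and the scale of the signal differs between experiments, so such differences were not tested.

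Changes were tested within each experiment on the deposited scale, with limma on log2 of signal plus 1, for genes whose mean signal reached 10, and a gene was called at a Benjamini-Hochberg adjusted p under 0.05 over all genes tested. The mean was taken over both groups compared, so a gene can reach 10 through 1 group alone. Values are log2 changes ± standard error (SE). In these cultures fewer cells making a transcript and less made per cell cannot be told apart. No group of a strain without a degron is labelled 3IAA among those used here. Within a degron comparison, effects of 3IAA itself and of losing the factor therefore cannot be told apart. On this scale a shift shared by all genes counts as a change, so the median of all genes tested is given beside the changes where it was far from 0. Over the 28 comparisons of a depletion or mutant with its control, HXT1 fell in 14 and rose in 10, HXT2 fell in 17 and rose in 2, and HXT3 fell in 20 and rose in 3. All 10 rises of HXT1 were in comparisons of 3IAA with DMSO, as were some of its falls, and none was in a mutant. STD1 fell in 14 and rose in 2, and MTH1, tested in 24, fell in 12 and rose in 7. HXT7 was tested in 11 comparisons (7 lower, 2 higher), HXT4 in 9 (8 lower, 0 higher), HXT6 in 1 (0 lower, 0 higher) and HXT5 in 0. The share of all genes called ran from 0.701% to 100% over these comparisons, and many of the falls came where nearly every gene fell. With TMM scaling, which sets changes against the typical gene, HXT1 was called lower in 8 and higher in 12, HXT2 in 12 and 3, HXT3 in 13 and 8, MTH1 in 6 and 10, and STD1 in 0 and 13. Over all genes tested, that scaling called 3 lower and 34 higher of 4851 in Med5, and 1490 lower and 1445 higher of 3927 in CCL1. The signal of HXT4 to HXT7 was under the minimum elsewhere, and there they are described by library values or group means. HXT5 had a mean signal of 0.411 over all 162 libraries, and its groups overlapped in 16 of 28 comparisons. Overlap was not counted over all genes, so whether the members' groups lie apart more often than those of other genes is unknown.

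**Figure D1:**
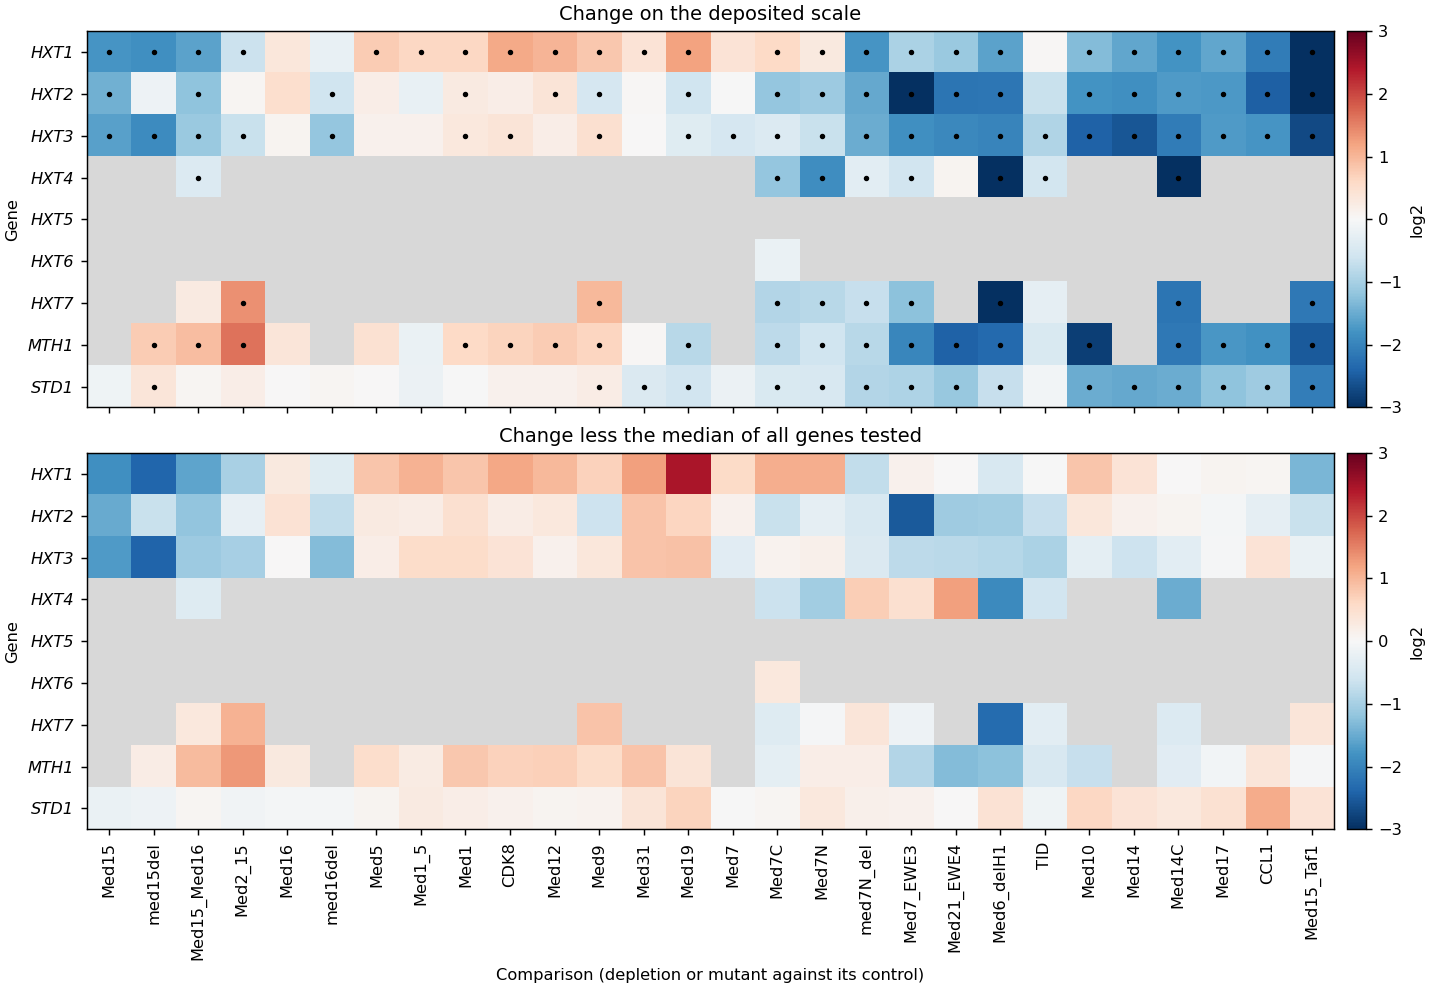
Log2 change of each gene (rows) in each of 28 comparisons (columns), on the deposited scale (top, dots mark adjusted p under 0.05 by limma) and after subtracting the median of all genes tested (bottom); grey marks genes under the minimum signal. HXT1 is blue in the columns at the left, where Med15 was lost, and red from Med5 to Med19, with a change of 1.21 in Med19 that lies 2.44 above the median.

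Loss of Med15, a tail subunit contacted by activators, lowered HXT1, HXT2 and HXT3. HXT1 signal was 37.38, 30.57 and 31.27 in the DMSO libraries of the Med15 strain and 7.35, 9.07 and 10.81 after 3IAA. HXT3 signal went from 213.06, 160.43 and 197.98 to 60.07, 57.49 and 63.22, and HXT2 signal from 84.75, 57.81 and 82.89 to 22.57, 26.41 and 30.94. For none of these 3 genes did the groups overlap. The mean was 3.64 times lower for HXT1 (log2 change −1.77 ± 0.21, adjusted p = 6.12e-15), 3.16 times lower for HXT3 (−1.64 ± 0.19) and 2.82 times lower for HXT2 (−1.45 ± 0.19). Mean HXT1 signal after 3IAA was 9.077, so HXT1 reached the minimum only through the DMSO libraries. Limma without the minimum gave adjusted p = 4.7e-13 for it. STD1 did not pass the test (−0.14 ± 0.20, adjusted p = 0.997). Of the 4 members tested 3 fell, where 5.11% of all 4088 genes tested were called and the median change was 0.07. MTH1 was under the minimum at 10.49, 5.09 and 7.36 in DMSO and 9.51, 6.84 and 7.65 in 3IAA, and its groups overlapped. HXT4 (means of 2.77 in DMSO and 1.61 in 3IAA) and HXT7 (2.07 and 1.47) were also under the minimum, with overlapping groups.

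Deletion of the MED15 gene gave the same direction for HXT1 and HXT3. HXT1 signal was 45.84, 45.65 and 54.78 in WT and 13.7, 11.62 and 12.95 in med15del (−1.85 ± 0.09, adjusted p = 7.48e-09). HXT3 signal was 97.96, 108.78 and 125.46 in WT and 25.56, 32.45 and 30.19 in med15del (−1.88 ± 0.10). HXT2 was 33.24, 35.79 and 45.39 in WT and 34.84, 33.47 and 33.83 in the deletion, with overlapping groups (−0.15 ± 0.10, adjusted p = 0.169). MTH1 (0.75 ± 0.24) and STD1 (0.37 ± 0.08) rose, but the median of the 3179 genes tested was 0.52 and 92.9% of them were called. With TMM scaling MTH1 was 0.25 (adjusted p = 0.43), STD1 turned to −0.15 (adjusted p = 0.0838) and HXT2 was −0.67 (adjusted p = 0.000163). Without WT replicate A, MTH1 also missed the threshold (0.49, adjusted p = 0.052) and HXT2 passed it (−0.24, adjusted p = 0.0403). Under the minimum, mean HXT4 signal was 1.573 in WT and 0.6667 in med15del, without overlap, while the groups of HXT7 overlapped. Limma without the minimum gave −0.56 for HXT4 (adjusted p = 0.0333), where 216 of 5731 genes were called lower and 4964 higher.

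The change of HXT2 differed between depletion and deletion of Med15. In a fit of both comparisons the difference, deletion minus depletion, was 1.31 ± 0.21 for HXT2 (adjusted p = 3.52e-06), where 52.4% of genes tested were called. The median difference of all genes tested was 0.48. Less this median HXT2 lay at 0.82, and with TMM scaling it was 0.79 (adjusted p = 0.0104). Differences of 0.66 ± 0.29 for MTH1 and 0.51 ± 0.20 for STD1 also passed, but were 0.18 and 0.01 with TMM scaling (adjusted p = 0.755 and 0.971). The MTH1 difference was also lost without any 1 of Med15_3IAA A or B, Med15_DMSO A, med15del B or WT A or B (0.40 to 0.78), and the STD1 difference without any 1 of Med15_3IAA A or C, Med15_DMSO A, any med15del library or WT A or B (0.38 to 0.52). HXT1 and HXT3 did not differ on the deposited scale (−0.09 ± 0.21 and −0.24 ± 0.20, adjusted p = 0.724 and 0.293), but did with TMM scaling (−0.65 and −0.77, adjusted p = 0.00806 and 0.00547).

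Depletion of Med15 together with Med16 or with Med2 also lowered HXT1 and HXT3, while MTH1 rose. With Med15 and Med16 depleted, HXT1 signal went from 136.36, 145.82 and 154.65 to 44.77, 52.86 and 44.47 (−1.60 ± 0.12), and HXT2 signal from 301.62, 285.75 and 276.14 to 110.29, 137.16 and 124.61 (−1.21 ± 0.12). HXT3 fell by 1.11 on the log2 scale. The groups of these genes did not overlap. MTH1 signal was 134.44, 80.36 and 65.26 in DMSO and 235.9, 163.56 and 125.58 in 3IAA, so that the groups overlapped, but each 3IAA library was above the DMSO library of the same letter (0.92 ± 0.12, adjusted p = 1.25e-12). Among 7 members tested, 4 fell and 1 rose, where 27.1% of 5085 genes were called. The fall of HXT4 (−0.40 ± 0.16, adjusted p = 0.0416) was lost with TMM scaling (adjusted p = 0.27), and its groups overlapped. HXT7 (0.28 ± 0.13, adjusted p = 0.0819) passed with the replicate letter as a paired block (adjusted p = 0.00288).

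With Med2 and Med15 depleted, HXT3 signal went from 465.96, 556.52 and 559.18 to 322.68, 337.4 and 326.55 (−0.67 ± 0.12) and HXT1 signal from 89.86, 108.89 and 70.29 to 61.73, 61.4 and 45.75 (−0.65 ± 0.16). MTH1 signal rose from 36.09, 41.3 and 94.96 to 137.48, 144.51 and 216.21 (1.62 ± 0.25, adjusted p = 0.000297), without overlap. HXT7 signal was 7.54, 7.83 and 31.16 in DMSO and 25.09, 25.4 and 58.31 in 3IAA (1.36 ± 0.39, adjusted p = 0.0142). In both genes replicate C was the highest library of its group under each treatment. The call of HXT7 was lost with TMM scaling (adjusted p = 0.196) and without DMSO replicate A (1.03, adjusted p = 0.119). Of 6 members tested 2 fell and 2 rose, where 48% of 5140 genes were called and the median was 0.32.

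**Figure D2:**
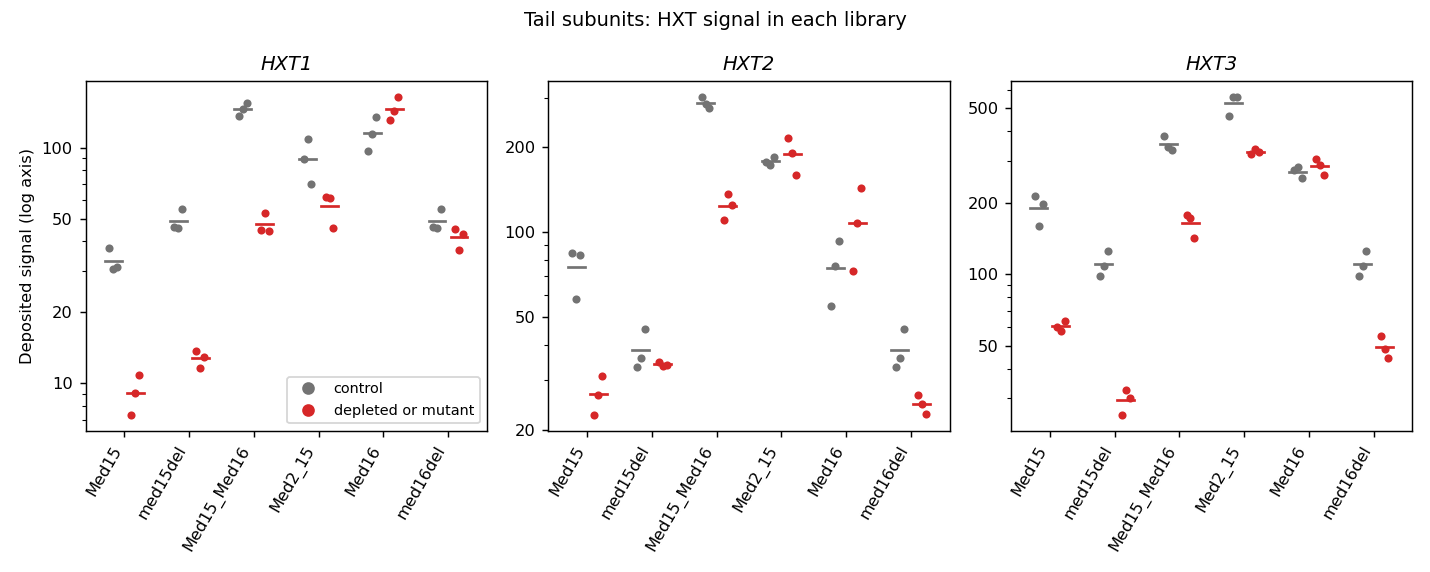
Deposited signal (log axis) of HXT1, HXT2 and HXT3 in each library of 6 comparisons of tail subunits; points are libraries, bars are means of 3. HXT1 and HXT3 of the treated group lie below the controls wherever Med15 was lost, while in the Med16 comparison the groups overlap for all 3 genes.

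These double depletions were set against Med15 alone in joint fits, which share the Med15 libraries. With Med16 added, MTH1 was the 1 of 6 members whose difference passed on the deposited scale (0.82 ± 0.25, adjusted p = 0.0227, where 7.76% of genes were called). With TMM scaling HXT3 passed instead (0.65, adjusted p = 0.00957). The MTH1 difference missed the threshold with TMM scaling (0.91, adjusted p = 0.0892) and without any 1 of 6 libraries: Med15_3IAA A or B, Med15_DMSO A, Med15_Med16_3IAA A, or Med15_Med16_DMSO B or C (0.59 to 0.94). With Med2 added, the differences were 1.52 ± 0.23 for HXT2 (adjusted p = 2.1e-05), 1.11 ± 0.25 for HXT1, 0.96 ± 0.22 for HXT3, 1.53 ± 0.31 for MTH1 and 1.62 ± 0.42 for HXT7, where 0.62% of genes were called. Of these 5, HXT2 also passed with TMM scaling (1.29, adjusted p = 0.0243), and HXT1, HXT3, MTH1 and HXT7 did not (adjusted p = 0.383, 0.0599, 0.383 and 0.755). Each of those 4 also missed the threshold when 1 library was left out. These were Med15_3IAA A or B or Med15_DMSO A for HXT1 (0.98 to 1.12), Med15_3IAA A or Med2_15_DMSO A for HXT3 (0.87 to 0.96), and Med15_3IAA B or Med15_DMSO A for MTH1 (1.30 to 1.43). For HXT7 they were Med15_3IAA A or B, Med15_DMSO A, Med2_15_3IAA C or Med2_15_DMSO A (1.23 to 1.76).

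Med16 is another tail subunit, and its depletion left HXT1, HXT2 and HXT3 without a call. HXT1 signal was 96.4, 114.69 and 134.31 in DMSO and 131.42, 143.71 and 164.21 in 3IAA (0.35 ± 0.18, adjusted p = 0.592), and HXT3 signal was 273.83, 283.58 and 254.5 in DMSO and 305.17, 289.34 and 262.07 in 3IAA (0.08 ± 0.19, adjusted p = 0.998). By limma 0 of 5 members tested were called, where 2.34% of 4871 genes were, and 2 of 5 had an unadjusted p under 0.05. In edgeR on recovered reads 0 of 5 were called as well. With the replicate letter as a paired block, HXT1, HXT2 and MTH1 passed (log2 changes of 0.35, 0.51 and 0.37, adjusted p = 0.0234, 8.87e-05 and 0.00442). That block also moved the calls over all genes from 57 lower and 57 higher to 219 lower and 390 higher, and TMM scaling gave 173 lower and 104 higher. The change of HXT1, HXT2 and HXT3 differed from that in the Med15 comparison by 2.12 ± 0.26, 1.96 ± 0.27 and 1.71 ± 0.27 (adjusted p = 7.92e-11, 8.81e-09 and 6.64e-07), where 1.88% of genes were called, and all 3 differences also passed with TMM scaling.

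The carriers of higher affinity had low signal in that strain and were higher after Med16 depletion. HXT7 signal was 3.6, 3.47 and 2 in DMSO and 21.77, 16.06 and 9.1 in 3IAA, and HXT4 signal was 4.56, 5.28 and 2.41 in DMSO and 21.09, 14.83 and 9.28 in 3IAA. HXT6 was listed at 0.48, 0.58 and 0.59 in DMSO and 9.49, 4.46 and 1.89 in 3IAA. The groups did not overlap for any of the 3, and the ratio of means was 5.17 for HXT7, 3.69 for HXT4 and 9.6 for HXT6. All 3 were under the minimum signal. Without that minimum limma gave 2.00 for HXT7 (adjusted p = 1.3e-07), 1.64 for HXT4 (adjusted p = 7.21e-06) and 1.83 for HXT6 (adjusted p = 3.97e-06). In edgeR on the recovered reads without a minimum, a test added after these data were seen, the log2 changes were 2.38, 1.89 and 3.22, with adjusted p = 6.3e-22, 9.73e-15 and 1.72e-18. The sum of HXT6 and HXT7 changed by 2.17 ± 0.19 in limma, but reached the minimum only through the 3IAA libraries, where it was high, so that it adds no support.

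Deletion of the MED16 gene lowered HXT3 and HXT2, and its difference from Med16 depletion was not tested. HXT3 signal fell from 97.96, 108.78 and 125.46 in WT to 54.65, 48.6 and 44.53 (−1.15 ± 0.12, adjusted p = 2.39e-21), and HXT2 signal from 33.24, 35.79 and 45.39 to 26.57, 24.66 and 22.73 (−0.60 ± 0.11). HXT1 did not pass (−0.22 ± 0.11, adjusted p = 0.107), though its groups did not overlap, and it passed with TMM scaling (−0.36, adjusted p = 0.00868). HXT4 was 0.84, 1.11 and 2.77 in WT and 4.19, 5.43 and 5.73 in med16del, and MTH1 was 6.82, 8.47 and 18.05 in WT and 4.3, 3.82 and 3.56 in med16del. Both were under the minimum and their groups did not overlap. HXT6 was listed at 0.24, 0.32 and 0.11 in WT and 0.61, 0.7 and 0.65 in med16del, also without overlap, and HXT7 at 0.46, 0.45 and 1.86 in WT and 2, 1.8 and 2.09 in med16del, with overlap. Limma without the minimum gave 1.31 for HXT4, 0.44 for HXT6 and 0.70 for HXT7 (adjusted p = 7.37e-05, 6.43e-05 and 0.0061). Of 4 members tested 2 fell, where 37.7% of 2813 genes were called. The comparison shares its WT libraries with that of med15del.

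HXT1 and MTH1 were higher after depletion of Cdk8 or Med12, both from the kinase module. HXT1 signal went from 72.66, 68.33 and 66.78 to 166.29, 153.47 and 140.25 after Cdk8 depletion, a ratio of means of 2.21 (1.13 ± 0.08, adjusted p = 1.03e-06). After Med12 depletion it went from 53.68, 41.77 and 54.88 to 100.36, 94.66 and 113.34, a ratio of 2.05 (1.03 ± 0.11, adjusted p = 4.67e-05). MTH1 rose by 0.66 ± 0.10 in the CDK8 comparison and by 0.77 ± 0.08 in the Med12 comparison. The groups did not overlap for either gene. HXT3 rose in the CDK8 comparison (0.38 ± 0.09, adjusted p = 0.0158) and HXT2 in the Med12 comparison (0.38 ± 0.11, adjusted p = 0.0339), the latter lost with TMM scaling (0.32, adjusted p = 0.0704). STD1 passed in neither (0.12 ± 0.09 and 0.14 ± 0.07). Of 5 members tested 3 rose and 0 fell in each comparison, where 12.5% of 4592 genes were called for CDK8 and 17.4% of 4481 for Med12.

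HXT4 and HXT7 were under the minimum signal in both strains and stood higher in every depleted library. HXT7 signal was 1.22, 0.75 and 0.69 in DMSO and 5.28, 4.42 and 2.5 after Cdk8 depletion, and 2.4, 3.25 and 2.38 in DMSO and 14.44, 16.34 and 9.35 after Med12 depletion. HXT4 signal was 2.64, 2.35 and 1.9 against 5.85, 6.27 and 4.23 for Cdk8, and 2.75, 4.02 and 4.01 against 12.54, 13.81 and 11.62 for Med12. The HXT7 values of the CDK8 libraries rest on 12 to 18 recovered reads in DMSO and 42 to 65 in 3IAA. Without the minimum, limma gave 1.39 for HXT7 and 0.96 for HXT4 in the CDK8 comparison (adjusted p = 0.000431 and 0.000901), and 1.94 and 1.58 in the Med12 comparison (adjusted p = 5.85e-05 and 3.55e-05). None of the 5 members tested differed between the Med12 and CDK8 changes by limma (0 called), where 0.395% of 4557 genes were called, and the difference for HXT1 was −0.10 ± 0.14. At an unadjusted p under 0.05 there were 0 of 5, and with TMM scaling 0 of 5 were called.

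**Figure D3:**
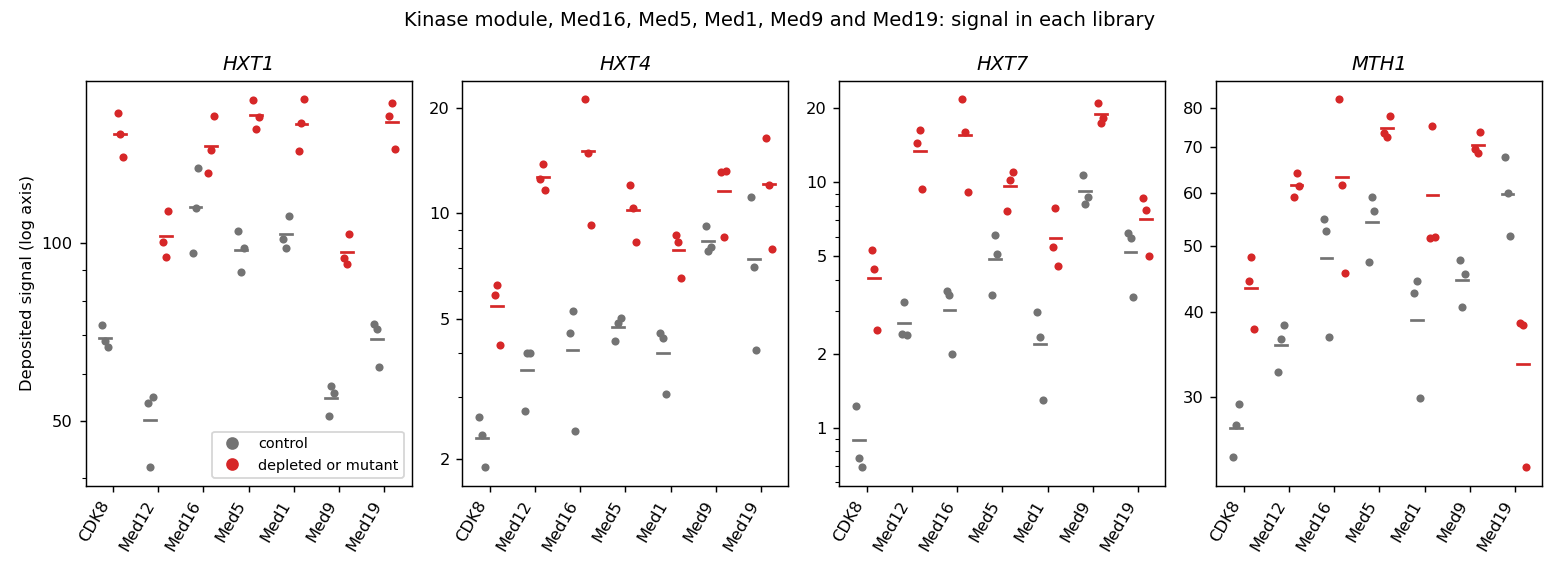
Deposited signal (log axis) of HXT1, HXT4, HXT7 and MTH1 in each library of 7 comparisons; points are libraries, bars are means of 3. HXT1 is higher in every treated library than in every control library except for Med16, while MTH1 is lower after Med19 depletion and overlaps between groups for Med16.

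HXT1 was also higher in 3IAA than in DMSO in the Med5, Med1 and Med9 comparisons. Its signal went from 104.83, 89.26 and 98.12 to 175.23, 156.04 and 163.78 for Med5 (0.76 ± 0.09, adjusted p = 0.000697), and from 101.62, 98.15 and 111.26 to 143.21, 159.94 and 175.36 for Med1 (0.61 ± 0.11). For Med9 it went from 51.06, 57.38 and 55.82 to 94.59, 92.2 and 103.79 (0.81 ± 0.07, adjusted p = 1.9e-09). None of these groups overlapped. HXT1 was the 1 member called of 5 tested for Med5, where 0.701% of 4851 genes were called. MTH1 just missed (0.46 ± 0.09, adjusted p = 0.0501) and passed with the replicate letter as a block (adjusted p = 0.00028), which moved the calls over all genes from 8 lower and 26 higher to 352 and 132. For Med1, 4 of 5 rose (38% of 4703 genes called): HXT1, HXT2 (0.26 ± 0.10), HXT3 (0.32 ± 0.11) and MTH1 (0.59 ± 0.11). HXT4 and HXT7, under the minimum, had groups that did not overlap in either comparison. HXT7 signal was 3.47, 6.07 and 5.11 in DMSO and 7.67, 10.25 and 10.98 in 3IAA for Med5, and 2.95, 2.34 and 1.29 against 5.43, 7.87 and 4.55 for Med1. HXT4 signal was 4.33, 4.87 and 5.04 against 12.01, 10.33 and 8.29 for Med5, and 4.56, 4.41 and 3.06 against 8.7, 8.3 and 6.55 for Med1. The 4 calls for Med1 became 2 without 3IAA replicate A, B or C or DMSO replicate B.

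Med9 depletion moved carriers both ways. HXT2 signal fell from 27.96, 27.41 and 27.84 to 17.73, 20.21 and 19.61 (−0.51 ± 0.07, adjusted p = 4.57e-06), while HXT7 signal rose from 10.74, 8.17 and 8.69 to 21.03, 17.37 and 18.36 (0.97 ± 0.10). Mean HXT7 signal in DMSO was 9.2, so it reached the minimum only through the 3IAA libraries, and its call adds no support. Limma without the minimum gave adjusted p = 1.72e-05 for HXT7. HXT3 (0.47 ± 0.06), MTH1 (0.65 ± 0.07) and STD1 (0.22 ± 0.06) rose. With 1 lower and 5 higher, all 6 members tested were called, HXT7 among them, where 46.9% of 4058 genes were and the median was 0.11. The call of STD1 was lost with TMM scaling (0.11, adjusted p = 0.0556). Under the minimum, HXT6 signal was 0.86, 0.68 and 0.85 in DMSO and 2.64, 1.49 and 2.21 in 3IAA, without overlap, and HXT4 signal was 9.18, 7.8 and 8.02 in DMSO and 13.11, 8.57 and 13.17 in 3IAA, with overlap. When Med1 and Med5 were depleted together, HXT1 signal was 78.7, 75.11 and 129.07 in DMSO and 134.66, 133.42 and 152.67 in 3IAA (0.61 ± 0.16, adjusted p = 0.000897). It was the 1 member called of 5, where 78.7% of 4781 genes were called and the median was −0.44. STD1 and HXT3 were also called with TMM scaling (0.26 and 0.56, adjusted p = 0.0355 and 0.00148).

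HXT1 rose while most genes fell after depletion of Med19. Its signal went from 73.14, 71.68 and 61.68 to 164.13, 173.11 and 144.67, a ratio of means of 2.33, with a median change of −1.23 over 4476 genes, of which 98.2% were called. With TMM scaling the HXT1 change was 2.46 (adjusted p = 1.51e-11). The other 4 members tested fell: HXT2 (−0.59 ± 0.16), HXT3 (−0.36 ± 0.15), MTH1 (−0.84 ± 0.15) and STD1 (−0.57 ± 0.15), each by less than the median, so that with TMM scaling all 4 were called higher. That scaling called 873 of all 4476 genes lower and 960 higher. In the Med31 comparison HXT1 rose (0.41 ± 0.11, adjusted p = 0.00109) and STD1 fell (−0.44 ± 0.09), 2 of 5 tested, where 97.6% of 4563 genes were called and the median was −0.83. HXT2, HXT3 and MTH1 did not pass there (0.03, 0.02 and 0.03). With TMM scaling all 5 were higher, with HXT1 at 1.26 and STD1 at 0.41, where 932 of 4563 genes were called lower and 817 higher.

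HXT1 was higher and HXT4 lower after depletion of either piece of Med7. In the Med7C comparison HXT1 signal rose from 27.28, 28.36 and 32.09 to 41.79, 44.22 and 47.73 (0.59 ± 0.10), and in the Med7N comparison from 34.58, 39.41 and 34.87 to 45.58, 44.03 and 43.61 (0.29 ± 0.10, adjusted p = 0.00557). HXT4 signal fell from 80.89, 83.79 and 91.54 to 38.28, 33.03 and 42.58 for Med7C (−1.15 ± 0.10) and from 65.51, 60.21 and 48.4 to 16.94, 14.87 and 13.88 for Med7N (−1.86 ± 0.11). None of these groups overlapped. HXT2, HXT3, HXT7, MTH1 and STD1 fell in both on the deposited scale. With TMM scaling HXT3, MTH1 and STD1 turned higher in Med7N (0.17, 0.24 and 0.34, adjusted p = 0.0304, 0.00279 and 2.02e-05) and HXT7 lost its call there (−0.03), while in Med7C the calls of HXT2, HXT3, MTH1 and STD1 were lost (−0.66, 0.12, −0.27 and 0.06). That made 6 lower and 1 higher of 8 tested for Med7C (95.4% of 4526 genes called, median −0.50), and 6 lower and 1 higher of 7 for Med7N (99.4% of 4262 genes, median −0.81). With the letter as a block HXT6 also passed in Med7C (−0.19, adjusted p = 0.012). The change of HXT4 was lower by 0.70 ± 0.15 for Med7N than for Med7C (adjusted p = 0.00299, with 32.1% of genes called), and this was lost with TMM scaling (−0.42, adjusted p = 0.0656).

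Depletion of whole Med7 gave fewer calls. HXT3 signal was 256.35, 302.47 and 227.55 in DMSO and 187.17, 195.56 and 165.96 in 3IAA (−0.51 ± 0.17, adjusted p = 0.0486), without overlap. It was the 1 member called of 4, where 9.21% of 4027 genes were called. The call of HXT3 was lost with TMM scaling (adjusted p = 0.0744) and without the minimum signal (adjusted p = 0.116), and 0 members were called without any 1 of the 6 libraries except DMSO replicate C. HXT1 signal was higher in every 3IAA library (72.59, 60.19 and 57.37) than in DMSO (42.74, 51.07 and 47.53), but did not pass (0.42 ± 0.18, adjusted p = 0.157) except with TMM scaling (0.60, adjusted p = 0.0216).

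The plasmid mutants of Med7, Med21 and Med6 lowered nearly all members along with most genes. In med7N_del all 7 members tested fell on the deposited scale, with HXT1 at −1.77 ± 0.12, HXT2 at −1.53 ± 0.12 and HXT3 at −1.48 ± 0.12, where 99.3% of 4385 genes were called and the median was −1.05. HXT4 (−0.32 ± 0.11), HXT7 (−0.69 ± 0.12), MTH1 (−0.84 ± 0.12) and STD1 (−0.89 ± 0.12) fell by less than the median, and of these the groups of HXT4, HXT7 and MTH1 overlapped. With TMM scaling HXT4 and STD1 were called higher (0.73 and 0.18, adjusted p = 0.0338 and 0.0342). In Med7_EWE3, compared with the same Med7_WT libraries, HXT2 signal was 25.09 and 30.05 against 282.09, 352.9 and 401.03, a ratio of means of 12.5 (−3.59 ± 0.15, adjusted p = 2.06e-12). Less the median its change was −2.53, and it stayed called with TMM scaling (−2.50, adjusted p = 7.2e-05). All 7 members tested fell there too, where 97.6% of 4485 genes were called and the median was −1.06.

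Med21_EWE4 lowered 5 of 6 members tested, where 98.7% of 4439 genes were called and the median was −1.14. MTH1 signal was 122 and 162.51 in Med21_WT and 16.09 and 39.43 in the mutant (−2.43 ± 0.19, adjusted p = 1.04e-33), and HXT2 signal was 177.17 and 207.73 against 40.36 and 41.45 (−2.20 ± 0.19). HXT4 did not follow, at 16.6 and 27.01 in the control and 17.32 and 29.49 in the mutant, with overlapping groups (0.09 ± 0.21, adjusted p = 0.673). With TMM scaling it was called higher (1.21, adjusted p = 0.0108).

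Removal of helix 1 of Med6 lowered HXT4 and HXT7 most among the members. HXT7 signal went from 38.54, 58.12 and 38.19 in Med6_WT to 4.14, 4.43 and 1.71 in Med6_delH1, a ratio of means of 13.1 (−3.41 ± 0.14). HXT4 signal went from 46.93, 66.97 and 39.56 to 5.29, 6.95 and 3.79, a ratio of 9.57 (−3.04 ± 0.14). Both genes reached the minimum only through the Med6_WT libraries, where they were high, so that passing it adds no support. Limma without the minimum gave adjusted p = 7.52e-46 for HXT7 and 2.22e-41 for HXT4. MTH1 (−2.34 ± 0.16), HXT2 (−2.16 ± 0.17), HXT3 (−1.98 ± 0.17), HXT1 (−1.61 ± 0.16) and STD1 (−0.68 ± 0.16) fell as well. All 7 tested fell, where 99.8% of 4554 genes were called and the median was −1.12. Less the median, HXT7 lay at −2.30, HXT4 at −1.92 and STD1 at 0.44.

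Depletion of the TID part of Med14 touched few genes but lowered HXT3. Its signal went from 225.67, 238.84 and 207.06 to 122.81, 117.5 and 117.58 (−0.90 ± 0.12, adjusted p = 0.000689), without overlap, and HXT4 signal from 58.13, 66 and 72.76 to 44.23, 49.48 and 40.77 (−0.54 ± 0.12, adjusted p = 0.0213). HXT1 signal stayed near 37.82, 31.8 and 25.57, at 33.13, 28.44 and 34.54 (0.03 ± 0.14, adjusted p = 0.964). HXT7 (−0.26 ± 0.16) and STD1 (−0.09 ± 0.13) did not pass either. HXT6, under the minimum, was 2.35, 4.55 and 5.65 in DMSO and 6.9, 10.33 and 8.63 in 3IAA, without overlap. That made 2 lower of 7 tested, where 5.72% of 4755 genes were called. With the letter as a block, HXT2 and MTH1 passed too (−0.66 and −0.45, adjusted p = 6.42e-11 and 0.000148), which made 4, while the calls over all genes went from 231 lower and 41 higher to 488 and 596. The count was 1 without 3IAA replicate C or DMSO replicate B or C, and 4 without DMSO replicate A.

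In 6 further comparisons where nearly every gene fell, the members tested fell too, STD1 by less than the median in each and other members in some. All members tested fell for Med14 (4 of 4, with 99.8% of 3543 genes called, median −1.96), Med14C (7 of 7, 100% of 4220, median −1.79), Med17 (5 of 5, 99.8% of 3974, median −1.66), Med10 (5 of 5, 99.9% of 4455, median −2.13), CCL1, the cyclin of the TFIIH kinase (5 of 5, 99.9% of 3927, median −2.18), and Med15 with Taf1, a TFIID subunit (6 of 6, 100% of 4688, median −2.50). STD1 changes ran from −2.08 to −1.07 in these 6 comparisons and lay above the median in each, by 0.32 (Med14C) to 1.11 (CCL1), and STD1 was called higher in all 6 with TMM scaling. That scaling called 1013 of 3543 genes higher in Med14, 1367 of 4220 in Med14C and 1046 of 3974 in Med17. It called 1608 of 4455 higher in Med10, 1445 of 3927 in CCL1 and 1708 of 4688 in Med15_Taf1. HXT1 also lay above the median in Med10 (by 0.84), Med14 (0.40), Med17 (0.08), CCL1 (0.07) and Med14C (0.01), but not in Med15_Taf1 (−1.36). In CCL1, STD1 signal went from 83.64, 88.85 and 82.48 to 38.26, 42.29 and 39.41 (−1.07 ± 0.08), and its TMM-scaled change was 1.17. Of the 5 of these comparisons in which MTH1 was tested, it lay furthest below the median in Med10, where its signal went from 56.1, 69.03 and 64.32 to 8.11, 8.27 and 7.59 (−2.83 ± 0.08). MTH1 reached the minimum there only through the DMSO libraries, and limma without the minimum gave adjusted p = 1.69e-12.

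Less the median of all genes, HXT1 was lowest of the 28 comparisons where Med15 was among the proteins lost, at −2.37 in med15del, −1.83 in Med15, −1.58 in Med15_Med16, −1.36 in Med15_Taf1 and −0.97 in Med2_15, followed by −0.73 in med7N_del. On the deposited scale this order did not hold, since HXT1 fell by 2.10 in CCL1 and by 0.65 in Med2_15. In the Med15_Taf1 comparison its signal went from 173.35, 205.25 and 197.66 to 11.34, 12.56 and 12.95, a ratio of means of 15.6 (−3.86 ± 0.08), or −1.36 less the median. HXT2 was at −0.66 and HXT3 at −0.21 less the median. In Med10 HXT1 fell by 1.29 on the log2 scale and lay 0.84 above the median. HXT4 in Med14C went from 96.6, 106 and 81.45 to 7.4, 10.4 and 8.99 (−3.27 ± 0.08), or −1.48 less the median. Its mean in 3IAA was 8.93, so HXT4 reached the minimum only through the DMSO libraries there. Limma without the minimum gave adjusted p = 4.83e-16. HXT6 in CCL1 was listed at 0.5, 0.27 and 0.47 in DMSO and 2.44, 2.89 and 2.67 in 3IAA, without overlap but under the minimum signal. Limma without the minimum gave 1.38 (adjusted p = 4.46e-08), while the median of all genes fell.

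Where nearly all genes fell, carriers under the minimum signal differed in direction. Mean HXT4 signal went from 8.6 to 1.863 in Med10, from 9.053 to 1.357 in Med14, from 1.237 to 0.2233 in Med17 and from 13.24 to 0.4233 in Med15_Taf1, without overlap in any of these. HXT5 mean signal went from 0.95 to 0.2633 in Med31 and from 1.563 to 0.1067 in Med14, without overlap. HXT6 groups were all lower in 5 comparisons, all higher in 9 and overlapped in 14, with no such count made over all genes. In Med19, where the median was −1.23, mean HXT6 signal was 0.8633 in DMSO and 1.843 in 3IAA, without overlap, while the groups of HXT4 (7.437 and 12.1) and HXT7 (5.197 and 7.11) overlapped.

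In the stress experiment, on counts with edgeR's quasi-likelihood test, TMM scaling and Benjamini-Hochberg adjustment, HS raised HXT5 and HXT7 and lowered HXT1 and HXT3. HXT7 CPM (counts scaled to a common library total) were 3.407, 2.466 and 1.596 in no_stress and 38.94, 35.44 and 53.89 under HS, a ratio of means of 17.2 (4.17 ± 0.29, adjusted p = 5.24e-10). HXT5 went from 0.7743, 1.315 and 1.14 to 18.7, 11.1 and 22.82 CPM, a ratio of 16.3 (4.14 ± 0.41, adjusted p = 5.14e-08), from 5, 8 and 5 counts in the no_stress libraries. HXT3 fell from 616.5, 583.2 and 594.8 to 212.7, 243.2 and 201.5 (−1.31 ± 0.11) and HXT1 from 271.8, 248.8 and 262.5 to 105.1, 135.1 and 91.86 (−1.09 ± 0.11). None of these groups overlapped. MTH1 rose (0.80 ± 0.14), STD1 fell (−0.54 ± 0.05) and HXT2 fell (−0.46 ± 0.18, adjusted p = 0.0288). The call of HXT2 was lost without no_stress replicate A or B or HS replicate B or C. Of 9 members tested 4 fell and 3 rose, where 74.5% of 5547 genes were called.

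HXT5 and HXT7 both hold AGGGG, the core of the stress response element bound by Msn2 and Msn4, upstream of the start codon, so a stretch with 1 of the 2 matches of HXT5 and a stretch with 2 of the 4 of HXT7 are shown with the matches in capitals. They lie at chrVIII:296843-296992 for HXT5 and chrIV:1156159-1156308 for HXT7, both on the minus strand, in sacCer3.
HXT5: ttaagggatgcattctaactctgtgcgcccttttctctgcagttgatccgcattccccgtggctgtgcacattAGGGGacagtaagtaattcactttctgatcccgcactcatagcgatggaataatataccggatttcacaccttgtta
HXT7: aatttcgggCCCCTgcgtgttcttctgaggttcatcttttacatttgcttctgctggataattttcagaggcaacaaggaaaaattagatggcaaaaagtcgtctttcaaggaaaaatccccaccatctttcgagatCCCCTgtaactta
Within 1000 bases HXT6 had 5 matches, HXT7 4, MTH1 3, HXT5 2, HXT1, HXT3, HXT4 and STD1 1 each and HXT2 none. At least 1 was found in 55.3% of genes and 4 or more in 2.31%. GAANNTTC, a pair of heat shock units, was found 2 times each for HXT1 and HXT3 and once for MTH1, in 35.9% of genes at least once, and CTTCC, bound by Gcr1, was found in all 9 members and 88.7% of genes.

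HXT6 did not rise with HXT7 as listed. Its counts were 13, 18 and 8 in no_stress and 8, 3 and 7 under HS (−1.02 ± 0.49, adjusted p = 0.0692), while HXT7 counts went from 22, 15 and 7 to 229, 230 and 281. HXT7 thus made up 53% of the summed counts of both genes in no_stress and 97.6% under HS. The summed gene rose by 3.29 ± 0.25. These shares rest on reads that can tell the genes apart, or on how other reads were assigned, and which of the 2 applies was not tested.

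SM raised HXT4, HXT7 and MTH1. HXT4 went from 2.013, 1.973 and 3.421 to 10.87, 8.975 and 11.75 CPM (2.21 ± 0.32, adjusted p = 1.36e-05), HXT7 from 3.407, 2.466 and 1.596 to 9.37, 8.12 and 10.78 (1.92 ± 0.35) and MTH1 from 50.64, 41.6 and 46.07 to 157.7, 118.8 and 163.3 (1.74 ± 0.13, adjusted p = 6.26e-09). None of these groups overlapped. HXT2 (0.62 ± 0.17) and HXT3 (0.46 ± 0.10) rose, and HXT1 did not pass (−0.07 ± 0.10, adjusted p = 0.592). HXT6 alone was lower (−1.13 ± 0.46, adjusted p = 0.0459), a call lost without no_stress replicate A or B or SM replicate A or B, and the sum of HXT6 and HXT7 was higher (1.16 ± 0.30). Of 9 members 5 rose and 1 fell, where 52.6% of 5547 genes were called. HS and SM share the no_stress libraries.

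**Figure D4:**
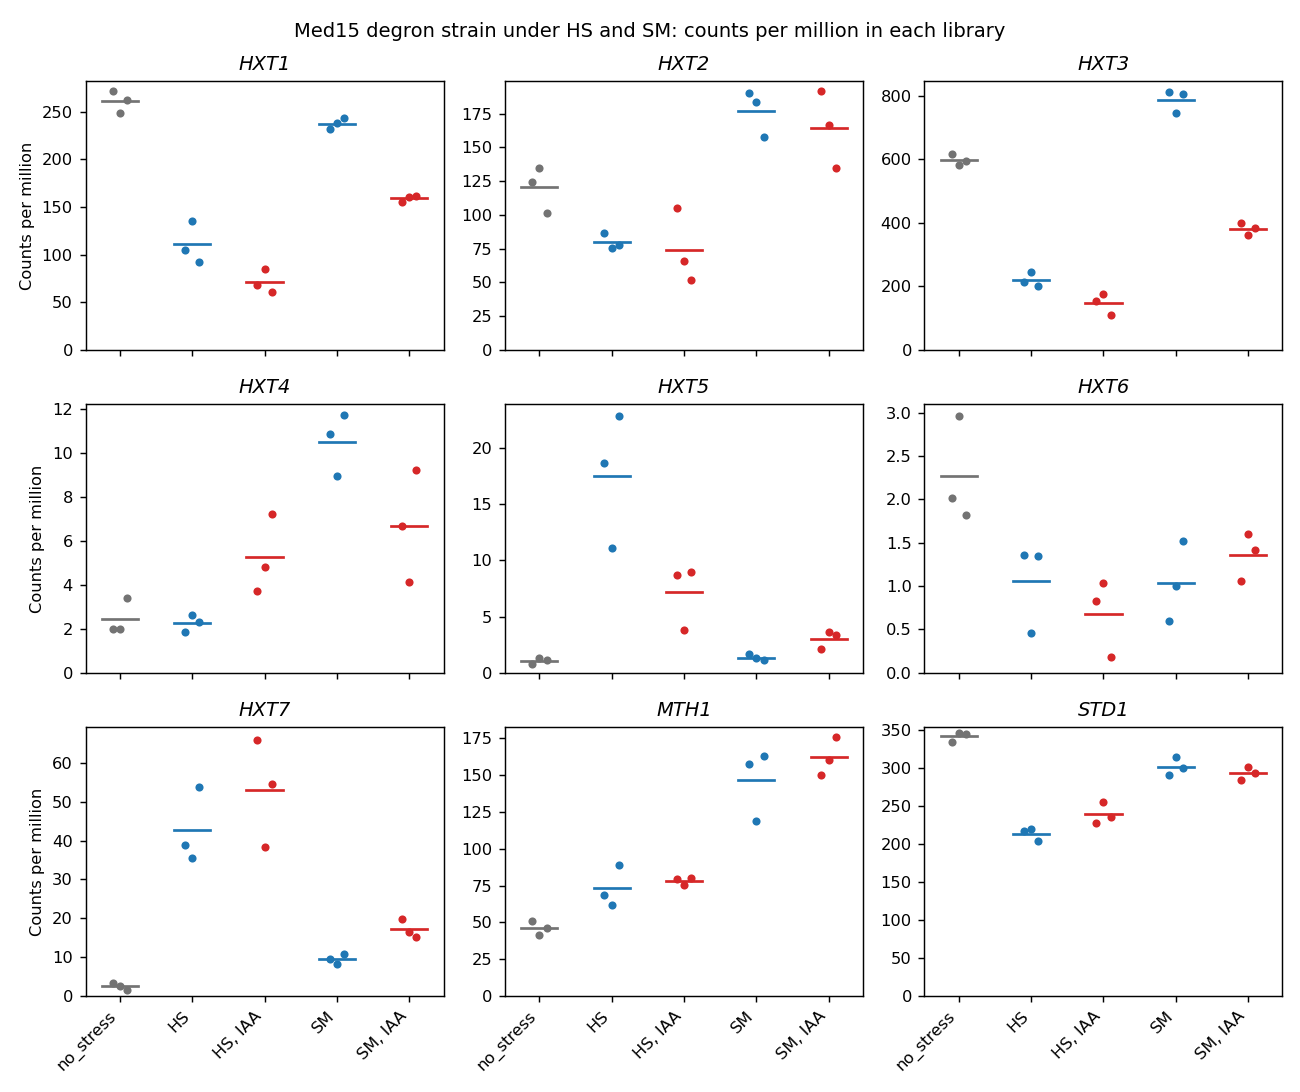
CPM, without TMM scaling, of all 9 genes in each library of the Med15 degron strain under no_stress (DMSO), HS and SM (each with DMSO or IAA); points are libraries, bars are means of 3. HXT5 and HXT7 are highest under HS, HXT4 and MTH1 under SM, and HXT1 and HXT3 are lower with IAA under both.

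Med15 depletion lowered HXT1 and HXT3 under both stresses. Under HS, HXT1 went from 105.1, 135.1 and 91.86 to 68.21, 84.7 and 60.63 CPM (−0.80 ± 0.11) and HXT3 from 212.7, 243.2 and 201.5 to 154.3, 175.4 and 109.8 (−0.74 ± 0.11). CPM are scaled to the library total and the changes by TMM, so the 2 scales can differ. Mean STD1 CPM under HS were 213.2 in DMSO and 239.2 in IAA, where edgeR gave −0.00 ± 0.05. Under SM, HXT3 went from 811, 745.8 and 804.1 to 399.1, 362.3 and 382.5 (−1.18 ± 0.10, adjusted p = 3.96e-08) and HXT1 from 231.6, 237.8 and 243.3 to 155.1, 160.5 and 161.9 (−0.71 ± 0.10). HXT2 passed in neither (−0.26 ± 0.19 under HS and −0.24 ± 0.17 under SM), but did under HS without IAA replicate A (−0.60, adjusted p = 0.0065). Under HS 3 of 9 members fell and 1 rose, where 34.9% of 5547 genes were called, and under SM 4 fell and 1 rose, where 48.1% were. STD1 was among those lower under SM (−0.18 ± 0.05, adjusted p = 0.0106 by edgeR). That call was lost without DMSO_SM replicate B (−0.15, adjusted p = 0.0576). The HXT3 change differed between the stresses by 0.43 ± 0.15 (HS minus SM, adjusted p = 0.0406, with 28.5% of genes called), a call lost without any 1 of DMSO_HS A or C, DMSO_SM A or C, IAA_HS A or B or IAA_SM B or C (0.26 to 0.43).

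The changes of HXT4 and HXT5 differed between the stresses. HXT5 fell under HS, from 18.7, 11.1 and 22.82 to 8.717, 3.773 and 9.015 CPM (−1.47 ± 0.28, adjusted p = 0.000439), and under SM was 1.695, 1.282 and 1.106 in DMSO and 2.119, 3.611 and 3.405 in IAA (0.97 ± 0.47, adjusted p = 0.0966, and 0.0477 with the letter as a block). The difference was −2.44 ± 0.54 (adjusted p = 0.00282). HXT4 rose under HS, from 1.87, 2.62 and 2.301 to 3.736, 4.814 and 7.247 (1.01 ± 0.36, adjusted p = 0.0369), and fell under SM, from 10.87, 8.975 and 11.75 to 6.709, 4.146 and 9.221 (−0.79 ± 0.24, adjusted p = 0.0121), a difference of 1.80 ± 0.43 (adjusted p = 0.0049). The HS call of HXT4 was lost without any 1 of the 6 libraries except IAA replicate A (0.74 to 1.13), and the SM call without IAA replicate B (−0.54, adjusted p = 0.0711). HXT7 rose under SM (0.74 ± 0.23, adjusted p = 0.0138), a call lost without DMSO replicate B or IAA replicate A, and was 0.14 ± 0.18 under HS. Their difference did not pass (−0.60 ± 0.30, adjusted p = 0.142).

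On the log2 scale of signal plus 1, which compresses the low HXT5 and HXT6, replicates of 1 group differed most in HXT7, and HXT7, HXT4 and MTH1 varied together. In the Med14_DMSO group, replicates A, B and C had 27.45, 7.49 and 14.1 signal for MTH1, 19.14, 2.44 and 6.72 for HXT7 and 14.59, 3.87 and 8.7 for HXT4, so that A was highest and B lowest for all 3. HXT5 had the same order there at 3.25, 0.25 and 1.19. STD1 signal was 66.24, 56.78 and 65.63 and HXT3 signal 274.07, 232.41 and 300.6 in the same libraries. Over the 162 signal libraries, the standard deviation of the log2 deviation from the group mean was 0.33 for HXT7, 0.25 for HXT4 and HXT6, 0.24 for MTH1, 0.23 for HXT2, 0.17 for HXT1 and HXT5, 0.09 for HXT3 and 0.05 for STD1. Deviations of HXT7 and MTH1 had a Pearson r of 0.87 and those of HXT4 and HXT7 of 0.68, while HXT1 had −0.40 with HXT7 and 0.50 with HXT2. These correlations are descriptions, since libraries share groups, preparation and, for HXT6 and HXT7, sequence. This variation touches the calls of MTH1 in Med2_15, Med15_Med16, med15del and med7N_del and of HXT7 in Med2_15 and med7N_del, and its part in them was not tested.

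**Figure D5:**
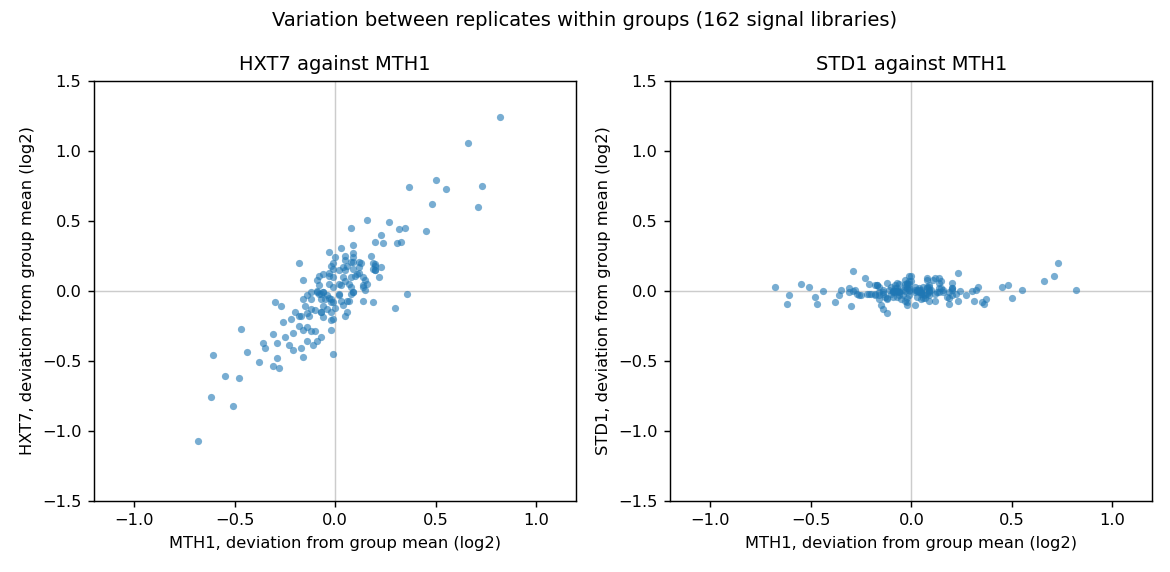
Deviation of each of 162 signal libraries from its group mean, in log2 of signal plus 1 less the library's median deviation, for HXT7 against MTH1 (left) and STD1 against MTH1 (right). Points lie along a rising line at the left (r = 0.87) and in a flat band at the right (r = 0.18).

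Across the 28 comparisons, less the median of each, HXT1 and HXT3 had the most similar changes among the members tested in all (Pearson r = 0.84), followed by HXT2 with HXT3 (0.64) and HXT1 with HXT2 (0.58). STD1 had r of 0.31 to 0.53 with the 3 carriers. Over the 2599 genes tested in all 28, those most like HXT1 were HXT3 (0.843), the aldehyde dehydrogenase gene ALD6 (0.831) and RHO5 (0.803), and those most like HXT3 were AMN1 (0.851), the repressor gene MIG2 (0.846) and HXT1. ADH3 (0.691), BOP2 (0.685) and ALD5 (0.679) were most like HXT2, and IRA1 (0.918), DCK1 (0.896) and MRPL3 (0.879) most like STD1. Comparisons that share control or Med15 libraries are among the 28 points, so these r values are descriptions.

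Other genes of the pathway were counted by list, beside the share of all genes called (5.11% in Med15, 12.5% in CDK8, 17.4% in Med12, 98.2% in Med19, 92.9% in med15del and 74.5% in HS). Of 8 genes for the sensors and the Rgt1 pathway, none passed by limma in the Med15 comparison, where adjusted p ran from 0.141 for the sensor gene SNF3 (0.55 ± 0.21) to 0.999 for YCK1, nor in the CDK8 comparison, where it ran from 0.561 for RGT1 to 0.986 for TUP1. All 8 fell in Med19 (median −1.33 against −1.23 for all genes), near the share of all genes, and 6 of 7 tested rose in med15del (median 0.34 against 0.52). Of 14 genes of the Snf1 and Mig1 branch, 2 of 12 tested fell in the Med15 comparison, MIG2 (−1.31 ± 0.20) and HXK2, the main hexokinase gene (−0.62 ± 0.20), and 1 of 14 rose in CDK8. Both also fell in med15del (−0.64 ± 0.12 and −0.55 ± 0.09) and Med15_Med16 (−0.83 ± 0.12 and −0.67 ± 0.13). Of 6 hexose kinase and glucose-repressed genes, HXK1 and GLK1 fell with Med15 (−1.86 ± 0.21 and −1.08 ± 0.19) and rose with Med12 (1.40 ± 0.15 and 0.80 ± 0.09), as did ADR1 and CAT8 in the latter, 4 of 5 tested, against 2 of 5 in CDK8. All 6 rose under HS (median 1.77), where 36.9% of all genes did, led by HXK1 (3.86 ± 0.25). Of the 10 other hexose transporter genes, 0 reached the minimum signal in 24 of 28 comparisons.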

How the data were processed

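RNA labelled with 4-thioU for 5 min was purified from yeast grown at 30 °C in synthetic complete medium and sequenced with the Ovation Universal RNA-seq System, per the labels' protocols. Reads were aligned with Bowtie2 and counted with HTSeq, per the submitters' processing notes, which name the builds sacCer3 and ASM294v2, while versions, strand and multi-mapping settings are not given in the sources used here. The deposited signal values, 1 file for each of 162 libraries, were scaled by the authors on a basis that is not given in the sources used here. The deposited count values of the 15 stress libraries are whole numbers and were used as the authors deposited them. In 106 signal libraries the values were whole multiples of 1 step (at least 96.52% of low values within 0.1 of a step), which gave whole reads. No pair of libraries was identical (0 pairs), and 0 columns of values were unused.

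Groups were taken from the labels. Signal was tested with limma 3.58.1 in R 4.3.3 on log2(signal + 1) with a mean-variance trend, for genes with a mean of 10 or more, within the libraries of each comparison, so a fold of a low gene is understated. Counts were tested with edgeR 4.0.16 (quasi-likelihood, TMM, filterByExpr) over all 15 stress libraries. Adjustment was by Benjamini-Hochberg over all genes tested, at a threshold of 0.05. Differences between changes were fitted jointly. Alternatives were TMM scaling, a pseudocount of 5, no minimum, the replicate letter as a block, edgeR on recovered reads, DESeq2 1.42.0, RLE size factors, only the 6 libraries compared, HXT6 and HXT7 summed, and each library left out. EdgeR on recovered reads called 227 genes lower and 349 higher for CDK8 and 61 lower and 62 higher for Med16. The same test without a minimum was added after seeing the data. Libraries of 1 letter deviated together (every pair with r over 0.1) in 15 of 32 comparisons, and there the block is given beside results it changes. The fits were tested on simulated data.

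The rule was to examine all 9 genes in every comparison, and genes under the minimum that are not named in one are given as counts of groups that overlapped or not. Alternatives were computed for up to 3 comparisons per gene and direction with a call at least 1 from the median of all genes, and for every gene tested in Med15, med15del, the stress comparisons and the 7 differences. The members are defined by gene name alone, but they and the lists were chosen with earlier results of these data known. Of the 5794 genes, 5792 matched the RefSeq annotation of the sacCer3 build, and sequences were read from its genome.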

Additional observations from a re-analysis of the deposited data

Results flagged for a closer look

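These changes differed between a pair of comparisons in a test of the difference itself, by limma or, for the stresses, edgeR. After Med16 rather than Med15 depletion the change was higher by 2.12 for HXT1, 1.96 for HXT2 and 1.71 for HXT3. Adding Med16 to Med15 gave 0.82 for MTH1. Adding Med2 to Med15 gave 1.11 for HXT1, 1.52 for HXT2, 0.96 for HXT3, 1.62 for HXT7 and 1.53 for MTH1. Deletion of MED15 rather than its depletion gave 1.31 for HXT2, 0.66 for MTH1 and 0.51 for STD1. Depletion of Med7N rather than Med7C gave −0.70 for HXT4. Med15 depletion under HS rather than SM gave 0.43 for HXT3, 1.80 for HXT4 and −2.44 for HXT5. In the order of these pairs, 1.88%, 7.76%, 0.62%, 52.4%, 32.1% and 28.5% of all genes tested were called. TMM scaling lost the calls of MTH1 with Med16 added and of HXT1, HXT3, HXT7 and MTH1 with Med2 added. It also lost those of MTH1 and STD1 for the deletion and of HXT4 for Med7N. The HXT3 call between the stresses was lost in 8 of 12 fits with 1 library left out. Comparisons with Med15 share its libraries, and each pair other than the stresses comes from different strains, so strain and subunit cannot be told apart. No group held 4 or more libraries, so single libraries far from their group were not searched for.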

How the results depend on the processing

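Of the single changes for which alternatives were computed, all kept their direction and call under no minimum (70 of 70 values), a pseudocount of 5 (59 of 59) and RLE size factors (45 of 45), and in 42 of 59 with TMM scaling, where 10 calls were lost and 5 gained. Outside that selection, calls lost without the minimum were HXT2 in Med1, HXT3 in Med7 and HXT4 in Med15_Med16, med7N_del and Med7_EWE3 (adjusted p = 0.0697, 0.116, 0.165, 0.0766 and 0.105). STD1 turned to 1.17 in CCL1 and −0.15 in med15del with TMM scaling, which sets the median of all genes near 0. HXT6 turned to 3.29 under HS and 1.16 under SM when summed with HXT7. Leaving out 1 library lost 59 calls and gained 8 among 879 values. DESeq2 lost 2 calls and gained 1 of 45. Of the counts of members called, TMM scaling gave 3 for CCL1, Med1_5, Med7C, Med15_Taf1 and Med7_EWE3, 2 for Med5 and Med14, 1 for Med17 and 5 for Med31. Over all genes, TMM scaling called 1490 lower and 1445 higher of 3927 for CCL1, 51 and 159 of 4781 for Med1_5, and 696 and 390 of 4526 for Med7C. It called 1803 and 1708 of 4688 for Med15_Taf1, 1070 and 1027 of 4485 for Med7_EWE3, and 3 and 34 of 4851 for Med5. For Med14 it called 1013 and 1013 of 3543, for Med17 1135 and 1046 of 3974, and for Med31 932 and 817 of 4563. No minimum, which adds low genes to the test, gave 8 for CCL1, Med10 and Med19, 7 for Med14, 6 for CDK8, Med12 and med16del, 3 for Med1_5 and Med16, 2 for Med5 and 0 for Med7, and a pseudocount of 5 gave 2 for Med5. Over all genes, no minimum gave 5347 lower and 87 higher of 5714 for CCL1, 5424 and 59 of 5716 for Med10, and 5251 and 43 of 5674 for Med19. It gave 5304 and 57 of 5698 for Med14, 225 and 371 of 5707 for CDK8, and 213 and 670 of 5708 for Med12. For med16del it gave 406 and 2095 of 5716, for Med1_5 3808 and 45 of 5672, and for Med16 49 and 60 of 5714. For Med5 it gave 8 and 31 of 5702, and for Med7 264 and 14 of 5662. A pseudocount of 5 gave 12 lower and 29 higher of 4851 for Med5. EdgeR on recovered reads gave 2 for Med5 and 0 for Med7, and without a minimum 6 for CDK8, 3 for Med1_5 and Med16, 4 for Med5 and 0 for Med7. Over all genes it called 15 lower and 29 higher of 4851 for Med5, and 368 and 7 of 4027 for Med7. Without a minimum these were 241 and 388 of 5707 for CDK8, 3781 and 45 of 5672 for Med1_5, and 69 and 83 of 5714 for Med16. For Med5 they were 22 and 44 of 5702, and for Med7 364 and 14 of 5662. With the replicate block the count was 2 for Med5, 4 for TID and 3 for Med16. Where the letters did not pair the libraries, the replicate block gave HXT4 and HXT7 in med7N_del adjusted p = 0.2 and 0.128, HXT4 in Med7_EWE3 0.0748, HXT2 in CDK8 0.0471 and HXT6 in SM 0.0531. Beside these and the calls given with the results, the block changed no call of a member. With 1 library left out, counts ran from 2 to 4 for Med1, 1 to 2 for Med1_5 and Med5, 0 to 1 for Med7 and Med16, 1 to 4 for TID and 3 to 5 for Med15_SM. Calls over all genes were not counted with 1 library left out, so whether other genes moved alike is unknown. The cause of these changes was not tested. HXT4 to HXT7 were under the minimum signal in most comparisons, and the part of depth in this was not tested. TMM scaling gave 271 genes lower and 94 higher for Med15 (182 and 27 on the deposited scale) and 354 and 190 for Med2_15 (176 and 2293).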

Other observations

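The Med15_Spt7 degron strain was used here with DMSO only, so it enters no comparison. Its replicates A, B and C had 156.8, 153.6 and 206.74 signal for HXT1, 92.85, 86.1 and 125.18 for HXT2 and 394.21, 398.1 and 506.87 for HXT3. HXT4 was 7.09, 5.55 and 10.44 and HXT7 was 6.95, 5.85 and 9.06. MTH1 was 63.11, 60.15 and 77.11 and STD1 was 197.8, 226.5 and 255.74. Replicate C was the highest of the 3 for each of these 7 genes, while HXT6, at 2.64, 2.55 and 2.3, was lowest there and HXT5 was 0.56, 0.9 and 0.77.

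The make-up of the hexose transporter signal, as the share of each gene in the sum over HXT1 to HXT7, also differed between groups. HXT2 made up 19% in WT and 43.6% in med15del. HXT1 made up 15.8% in Med19_DMSO and 35.5% in Med19_3IAA. HXT2 made up 11.8% in Med9_DMSO and 5.77% in Med9_3IAA. These groups were chosen after their values were seen, and the shares describe group means, with no test.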
